A study of Mus musculus with 6 samples.

Results

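The genes described here are 45 genes of lysosomes and autophagy, chosen as a list of symbols by what their products do. They were chosen with earlier results of these data known and read from a table of gene counts from mouse Th9 cells. All 45 symbols were in the table of 21233 genes, and all 45 passed the filter on low counts that left 13255 genes for testing. They comprised 2 transcription factors of the TFE family, 24 genes of the lysosome (6 cathepsins, 8 other proteins of the lumen, 7 membrane proteins and 3 subunits of the proton pump) and 19 autophagy genes (5 of initiation, 5 of ATG8 conjugation, 5 ATG8 proteins and 4 receptors).

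RNA was sequenced from 3 libraries of Th9 cells treated with sorafenib and 3 libraries of Th9 cells without sorafenib, called control. Th9 cells are CD4 helper T cells known for secreting interleukin 9, and sorafenib is a small-molecule inhibitor of RAF and of several receptor tyrosine kinases. The sources used here do not give the dose, the duration, the vehicle, the mouse strain and age, or the way the cells were grown. Nothing in the labels beyond a replicate number says whether libraries of a group came from separate cultures or mice, and the p-values cover only the spread between these libraries, which may be technical.

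Lysosomes are acidic organelles in which proteins, lipids and sugar chains are broken down. A proton pump, the V-ATPase, acidifies them, membrane proteins such as the LAMPs line them, and TFEB and TFE3, which are held in the cytoplasm by mTORC1, enter the nucleus on starvation or lysosomal stress and raise transcription of many lysosomal and autophagy genes. Autophagy encloses cytoplasm in a double membrane, on which ubiquitin-like ATG8 proteins are anchored and bind cargo receptors, and delivers it to lysosomes. In T cells it is known to support survival and metabolism after activation.

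Total counts were 36981476 to 38126521 per library, of which the 45 genes took 0.515% to 0.529% in sorafenib libraries and 0.511% to 0.538% in control libraries. Levels are given as CPM, counts relative to the library total, scaled with TMM factors. Before that scaling, 3 counts, taken as the limit that a count of 0 allows, came to 0.0787 to 0.0811 CPM. This limit covers counting error alone. Markers of the labelled cell type were present. Il9, the cytokine that names Th9 cells, averaged 266 ± 15.4 CPM in sorafenib cells and 192 ± 18.8 CPM in control cells (SD, n = 3 each). All 6 Th9 markers were in the table and 3 rose, Il9, Gata3 and Etv5, while Irf4, Batf and Stat6 did not pass. Irf4, the most abundant, had 1206 ± 37.2 CPM in sorafenib cells and 1408 ± 140.2 CPM in control cells, and the summed level of the 6 was 2066 to 2082 CPM in sorafenib libraries and 2023 to 2219 CPM in control libraries. Of 9 T cell markers 8 were in the table and 5 fell with sorafenib; their summed level was 2028 to 2123 CPM in sorafenib libraries and 2487 to 2513 CPM in control libraries. Control replicate 2 stood apart from the other libraries. Its scaling factor was 0.922, against 0.993 to 1.03 in the others. It was the highest or lowest of the 3 control libraries for 36 of the 45 genes and for 81.2% of all tested genes. With 3 libraries, each is at an extreme for most genes even when all are alike, and the other control libraries were not counted. The groups are bulk RNA, in which fewer cells of a type and less RNA per cell cannot be told apart.

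With sorafenib, 4 of the 45 genes rose and 7 fell by the quasi-likelihood test of edgeR, with a threshold of 0.05 on p-values adjusted over all 13255 genes. Cathepsin genes Ctss and Ctsd, the progranulin gene Grn and the membrane glycoprotein gene Gpnmb rose. The galactosidase genes Gla and Glb1, the protective protein gene Ctsa, the cholesterol carrier gene Npc2, the tetraspanin gene Cd63, the autophagy gene Uvrag and the ATG8 gene Gabarapl1 fell. The members called made up 24.4% of the list, beside 17.9% of all tested genes, of which 8.51% rose and 9.43% fell. The median log2 fold change (sorafenib minus control) was -0.0077 over the 45 genes and -0.011 over all tested genes, and the median size of the change was 0.19 over the 45 genes and 0.18 over all tested genes. Total-count scaling gave 6 higher and 7 lower members and filtered FPKM 7 higher and 7 lower. Over all genes, total-count scaling called 1496 higher and 826 lower, in place of 1128 higher and 1250 lower. These settings called 11.3% of all tested genes higher and 6.23% lower (total counts), and 12.7% higher and 6.76% lower (FPKM). DESeq2 called 13 of the 45 genes, beside 20.4% of all tested genes, and limma-voom 11, beside 18% of all tested genes. At an unadjusted p under 0.05 there were 21 of the 45, beside 30.9% of all tested genes. Without control replicate 2, 20 of the 45 genes passed, 10 in each direction, beside 31.8% of all tested genes, and all 11 of the genes above were among them. By place in the cell, 9 of the 24 lysosomal genes passed in the main fit (37.5%, 4 higher and 5 lower). The shares of all tested genes in that fit were 17.9% in either direction, 8.51% higher and 9.43% lower.

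**Figure D1:**
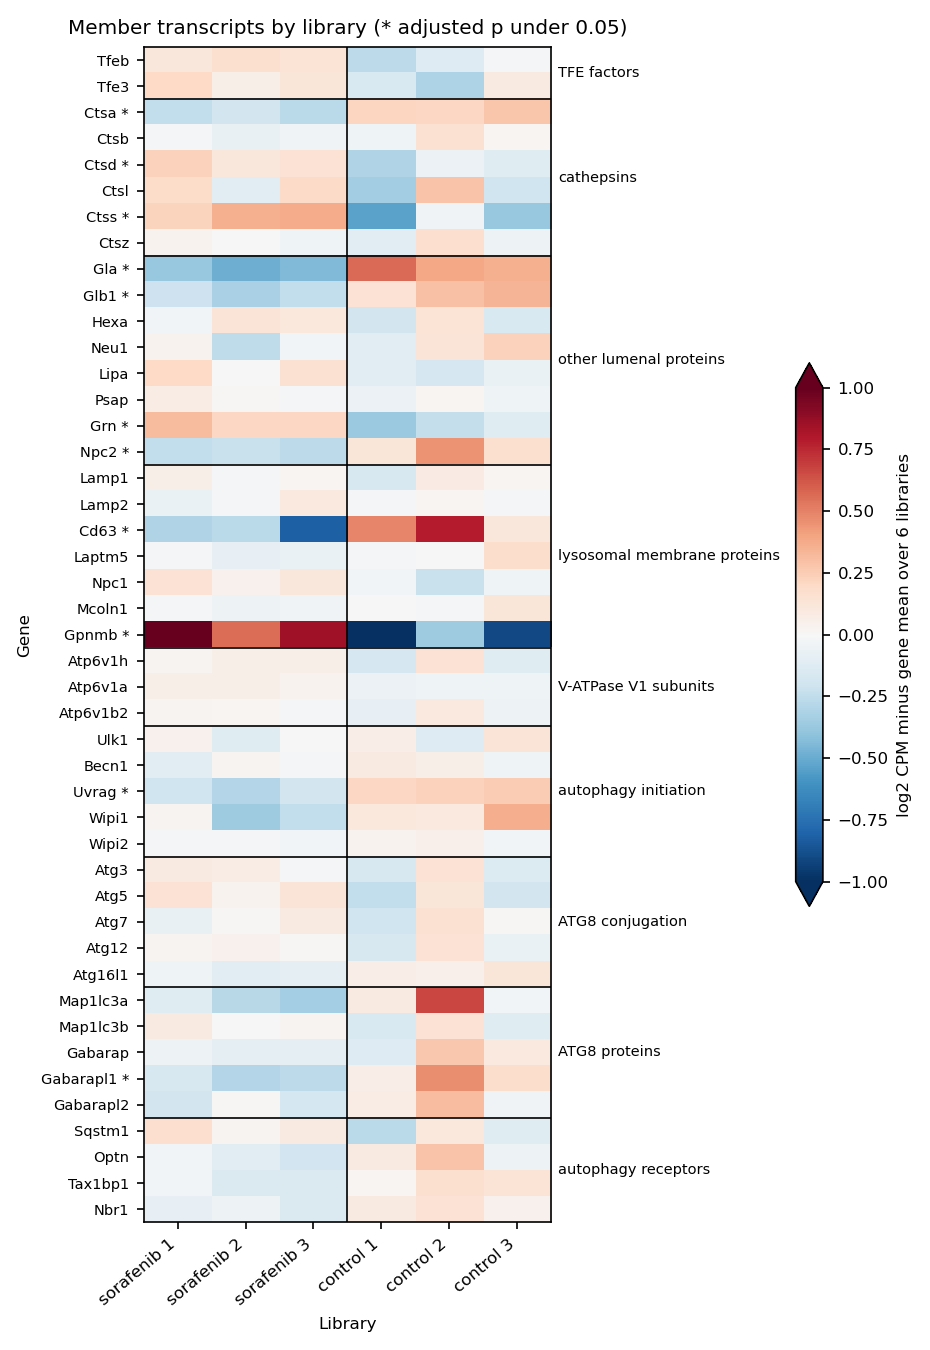
Heat map of the 45 genes (rows, grouped by role) in the 3 sorafenib libraries (left) and 3 control libraries (right); colour is log2 CPM minus the gene's mean over the 6 libraries, limited to 1 in either direction, and stars mark an adjusted p under 0.05. Gpnmb and Gla differ between the groups in every library, and control replicate 2 differs from the other control libraries in many rows, such as Ctsl and Map1lc3a.

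**Figure D2:**
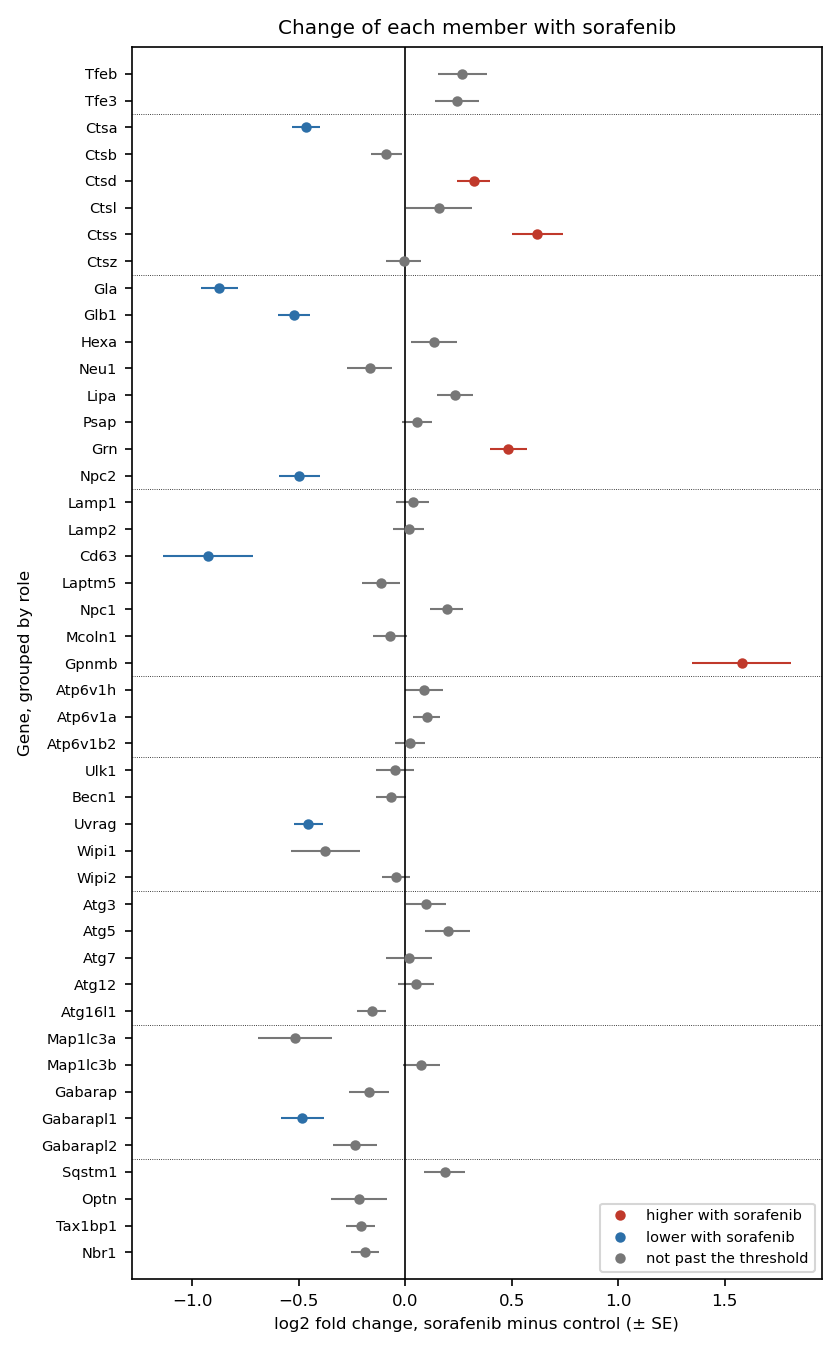
Log2 fold change of each of the 45 genes, sorafenib minus control, with its standard error from edgeR; red genes rose, blue genes fell and grey genes did not pass the adjusted p threshold. Values run from -0.93 for Cd63 to 1.58 for Gpnmb, and grey Map1lc3a, at -0.52, lies farther from 0 than several coloured genes.

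Tfeb and Tfe3, the 2 transcription factors of lysosomal genes in the list, did not pass the test by edgeR, DESeq2 or limma-voom, and both had an unadjusted p under 0.05. Tfeb had 8.83, 9.15 and 8.99 CPM in sorafenib libraries, against 6.81, 7.49 and 8.101 CPM in control libraries. In TMM-scaled CPM, the scale on which overlap is judged throughout, the groups did not overlap, as in 21 of the 45 genes (8 higher and 13 lower, beside 18.3% and 18% of all tested genes) and in 36.3% of all tested genes, but the gap between them was smaller than the range of the control libraries. The log2 fold change of Tfeb was 0.27 ± 0.12 (SE, edgeR adjusted p = 0.146). Tfe3 had 36.4, 33.05 and 34.4 CPM in sorafenib libraries, against 28.4, 25.6 and 33.6 CPM in control libraries, with the lowest sorafenib library below the highest control library. Its log2 fold change was 0.24 ± 0.10 (edgeR adjusted p = 0.141), and it passed the threshold without control replicate 3 (adjusted p = 0.0453, with a range of 0.0453 to 0.366 over 18 alternatives). As FPKM, the deposited count scaled by library total and gene length, the level of Tfe3 was 8.66 ± 0.364 FPKM in sorafenib cells and 6.96 ± 1.19 FPKM in control cells (SD, n = 3 each), and that of Tfeb was 1.22 ± 0.0292 FPKM in sorafenib cells and 0.963 ± 0.0881 FPKM in control cells. Tfeb was 44th of the 45 genes by FPKM.

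Cathepsins are proteases of the lysosomal lumen, and of the 6 in the list 2 rose, 1 fell and 3 did not pass. Ctss, the cysteine protease that trims the class II invariant chain in antigen-presenting cells, had 38.2, 41.7 and 42.3 CPM in sorafenib libraries, against 22.5, 31.9 and 25.1 CPM in control libraries. Every sorafenib library was above every control library, and control replicate 2 was the nearest to them. Ctss rose 1.54-fold (log2 fold change 0.62 ± 0.12 SE, edgeR adjusted p = 0.0054). Ctsd, an aspartic protease and among the most abundant lysosomal enzymes, had 232, 215 and 219.9 CPM in sorafenib libraries, against 161, 191 and 182 CPM in control libraries. The groups did not overlap, and Ctsd rose 1.25-fold (log2 fold change 0.32 ± 0.078 SE, edgeR adjusted p = 0.0165). Leaving out sorafenib replicate 1 or 3 ended this call (adjusted p = 0.0939 and 0.0762), with a range of 9.25e-05 to 0.0939 over 18 alternatives.

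Ctsa, a serine carboxypeptidase also called protective protein because it stabilises the sialidase NEU1 and the beta-galactosidase GLB1 in a shared complex, had 75.01, 78.04 and 73.7 CPM in sorafenib libraries, against 103, 103 and 107 CPM in control libraries. The spread within each group was small beside the gap between them. Ctsa fell 1.38-fold (log2 fold change -0.47 ± 0.065 SE, edgeR adjusted p = 0.000848). The cysteine proteases Ctsb, Ctsl and Ctsz did not pass. Ctsb had 241, 232 and 239 CPM in sorafenib libraries, against 237, 272 and 248 CPM in control libraries, and Ctsz had 121, 117 and 115 CPM in sorafenib libraries, against 109, 132 and 114 CPM in control libraries. In both genes the groups overlapped, and control replicate 2 was the highest of the 6 libraries. Ctsl had 26.9 ± 3.09 CPM in sorafenib cells and 24.1 ± 5.78 CPM in control cells (SD, n = 3 each), and passed as higher without control replicate 2 (adjusted p = 0.00738, with a range up to 0.912 over 18 alternatives). In the GENCODE annotation of GRCm38, exons of Ctsb share 16.3% of their length with Fdft1 on the opposite strand, which fell (log2 fold change -0.56, edgeR adjusted p = 0.000761), and because the sources used here name no strand setting for the counting, their reads may not be told apart. The same holds for Ctsa, which shares 13.5% with Pltp and 8.82% with Neurl2, both far lower in counts, and for Becn1 (29.6% with Cntd1), Sqstm1 (20.5% with Mrnip), Gabarapl1 (2.58% with 1700101I11Rik), Uvrag (1.78% with Gm45187), Ctsl (28.2% with the antisense gene model Gm47123) and Lamp1 (7.94% with Grtp1), and for 6 more of the 45 genes, with overlaps of 0.694% to 5.84%. On its own strand Ctsd shares 31.5% with the gene model Gm49369, and Ctsl shares 6.4% with a pseudogene, Gm49230.

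The other 8 lumenal proteins include glycosidases, a lipase, activator and carrier proteins, and of these 1 rose and 3 fell. Gla, the alpha-galactosidase that removes terminal galactose from glycolipids and is deficient in Fabry disease, had 22.8, 21.2 and 21.8 CPM in sorafenib libraries, against 43.9, 38.7 and 37.9 CPM in control libraries. All sorafenib libraries lay below all control libraries, and the difference had the smallest adjusted p of the 45 genes. Gla fell 1.83-fold (log2 fold change -0.87 ± 0.086 SE, edgeR adjusted p = 0.000109). Glb1, the beta-galactosidase of the same complex as CTSA, had 77.1, 70.8 and 74.8 CPM in sorafenib libraries, against 98.2, 109 and 113 CPM in control libraries. The groups did not overlap, and Glb1 fell 1.44-fold (log2 fold change -0.52 ± 0.075 SE, edgeR adjusted p = 0.00103). Exons of Glb1 share 6.89% of their length with Tmppe on the same strand, a gene that did not pass (log2 fold change -0.25, edgeR adjusted p = 0.212), so reads in that stretch are uncertain. Neu1, the sialidase of the complex, had 37.4, 30.6 and 35.7 CPM in sorafenib libraries, against 33.9, 39.9 and 42.8 CPM in control libraries, which overlapped. It did not pass (log2 fold change -0.17 ± 0.11 SE, edgeR adjusted p = 0.328).

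Npc2, a soluble carrier that hands cholesterol from the lumen to the membrane protein NPC1, had 454, 462 and 449.9 CPM in sorafenib libraries, against 587, 737 and 605 CPM in control libraries. The sorafenib libraries were close to each other, and control replicate 2 was well above the other control libraries. Npc2 fell 1.41-fold (log2 fold change -0.50 ± 0.10 SE, edgeR adjusted p = 0.00525). Npc1, its partner, had 74.7, 69.5 and 73.1 CPM in sorafenib libraries, against 66.4, 57.9 and 65.6 CPM in control libraries. Its groups did not overlap, but it did not pass (log2 fold change 0.19 ± 0.077 SE, edgeR adjusted p = 0.112), and of 18 alternatives only the removal of the trend with gene length called it, as higher (adjusted p of 0.0356, and up to 0.31 over the 18). Grn encodes progranulin, a glycoprotein that is cut into granulins in lysosomes. It had 40.8, 37.8 and 37.7 CPM in sorafenib libraries, against 25.3, 27.8 and 30.03 CPM in control libraries, without overlap. Grn rose 1.398-fold (log2 fold change 0.48 ± 0.087 SE, edgeR adjusted p = 0.00366).

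Lipa, the acid lipase that frees cholesterol and fatty acids from esters, had 33.3, 29 and 32.3 CPM in sorafenib libraries, against 26.9, 25.9 and 27.8 CPM in control libraries. These did not overlap, and the change missed the threshold (log2 fold change 0.23 ± 0.084 SE, edgeR adjusted p = 0.0864). Lipa passed under 4 alternatives in which the scaling differed, total counts, upper-quartile factors and both filtered FPKM fits (adjusted p of 0.0436 to 0.0476, with a range up to 0.278 over 18 alternatives). Psap, the precursor of the saposins that present glycolipids to hydrolases, had 446 ± 13.6 CPM in sorafenib cells and 429 ± 12.3 CPM in control cells. Hexa, the alpha subunit of beta-hexosaminidase, had 18.4 ± 1.06 CPM in sorafenib cells and 16.8 ± 2.12 CPM in control cells (SD, n = 3 each). Both overlapped between the groups and did not pass (edgeR adjusted p = 0.655 and 0.451).

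Promoters are shown for the members that changed and whose 250 bases before an annotated start held a motif linked to the TFE and MITF family of factors. The motifs searched were the E-box CACGTG, which reads the same on both strands and is the core of the sites known to be bound by TFEB, and the M-box TCATGTGA, also as TCACATGA on the other strand, known from MITF. RefSeq promoters of GRCm38.p6 were matched for 37 of the 45 genes by symbol. Where a gene had several annotated starts, it was counted if the window before any of them held the motif. An E-box was in 11 of these 37 genes (29.7%), against 9.76% of tested genes and 6.86% of all genes in the table of promoters. An M-box was in 2 (5.41%), against 0.788% of tested genes and 0.984% of all genes. Counted by window, an E-box was in 25% of 44 windows of members, against 8.11% of windows of tested genes. Of the 11 genes with an E-box, Ctsd rose, Ctsa, Gla and Glb1 fell, and Atg3, Atg5, Atg7, Atp6v1a, Ctsl, Lamp1 and Mcoln1 did not pass. M-boxes were in Gla, which fell, and in Grn, which rose. Capitals mark the motifs, and each sequence is written 5′ to 3′ on the gene's strand and ends at the base before the start.
Ctsd, chr7:142387828-142388077, minus strand: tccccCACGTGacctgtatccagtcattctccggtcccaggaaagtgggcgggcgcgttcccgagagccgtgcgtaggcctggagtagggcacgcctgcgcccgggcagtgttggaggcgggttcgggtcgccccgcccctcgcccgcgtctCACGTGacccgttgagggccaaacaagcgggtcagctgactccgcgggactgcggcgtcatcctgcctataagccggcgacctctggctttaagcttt
Ctsa, chr2:164833523-164833772, plus strand: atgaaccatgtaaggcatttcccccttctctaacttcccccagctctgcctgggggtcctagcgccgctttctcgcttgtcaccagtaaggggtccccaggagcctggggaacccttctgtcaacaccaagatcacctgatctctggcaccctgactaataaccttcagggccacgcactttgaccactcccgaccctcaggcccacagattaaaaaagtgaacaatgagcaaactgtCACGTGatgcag
Glb1, chr9:114400828-114401077, plus strand: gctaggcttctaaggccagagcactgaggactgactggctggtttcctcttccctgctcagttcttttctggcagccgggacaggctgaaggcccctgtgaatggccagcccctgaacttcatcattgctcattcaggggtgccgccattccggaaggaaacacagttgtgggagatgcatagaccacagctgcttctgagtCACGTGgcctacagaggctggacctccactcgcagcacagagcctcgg
Gla, chrX:134601006-134601255, minus strand: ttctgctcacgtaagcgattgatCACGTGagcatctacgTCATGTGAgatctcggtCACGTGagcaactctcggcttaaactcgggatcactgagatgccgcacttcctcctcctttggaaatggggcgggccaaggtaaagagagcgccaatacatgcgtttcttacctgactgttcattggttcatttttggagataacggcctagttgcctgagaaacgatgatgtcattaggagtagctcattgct
Grn, chr11:102430257-102430506, plus strand: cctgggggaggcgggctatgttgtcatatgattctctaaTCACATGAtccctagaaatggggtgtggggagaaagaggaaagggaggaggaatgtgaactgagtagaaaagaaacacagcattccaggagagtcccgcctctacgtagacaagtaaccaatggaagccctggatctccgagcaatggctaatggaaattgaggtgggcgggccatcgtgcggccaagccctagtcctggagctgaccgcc

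Gla held 2 E-boxes, whose first bases lay 227 and 194 bases before the start, with the M-box between them at 211 bases. Ctsd also held 2 E-boxes, at 245 and 98 bases before the start, and moved in the other direction. Ctsa and Glb1 each held 1 in the window shown, at 12 and 48 bases, and Grn held an M-box at 211 bases and no E-box. The window before another annotated start of Ctsa (chr2:164832622-164832871) held neither motif. The motifs did not overlap each other, and a match in letters is a description of the window, not of binding.

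**Figure D3:**
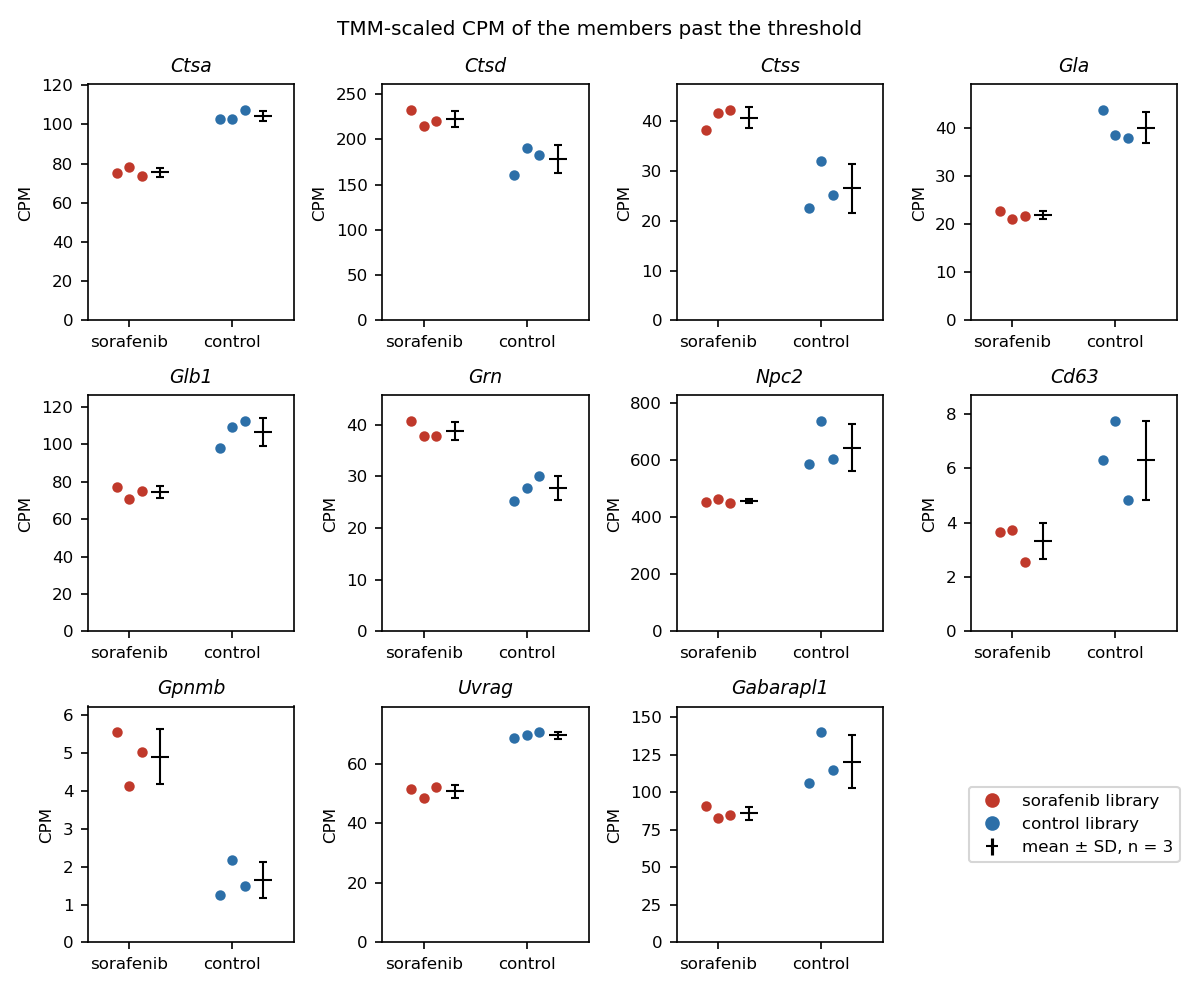
TMM-scaled CPM of the 11 genes that passed the threshold, a panel for each gene, with the 3 sorafenib libraries in red to the left of the 3 control libraries in blue and black bars for mean ± SD. In all 11 panels the red and blue points do not overlap, and control replicate 2, the middle of the 3 blue points, is the highest control library for Npc2, Gabarapl1, Cd63, Ctsd, Ctss and Gpnmb.

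Among the 7 lysosomal membrane proteins, Gpnmb rose, Cd63 fell and 5 did not pass. Gpnmb encodes a transmembrane glycoprotein known from macrophages, osteoclasts and melanocytes, where MITF and TFE3 drive it. It had 5.56, 4.12 and 5.03 CPM in sorafenib libraries (216, 158 and 197 counts), against 1.26, 2.18 and 1.49 CPM in control libraries (47, 75 and 56 counts). Each sorafenib library held more Gpnmb than any control library. Gpnmb rose 2.99-fold (log2 fold change 1.58 ± 0.23 SE, edgeR adjusted p = 0.00109), the largest change in size of the 45 genes, at the lowest mean level per length over the 6 libraries (1.32 ± 0.188 FPKM in sorafenib cells and 0.415 ± 0.0991 FPKM in control cells). Cd63, a tetraspanin of late endosomes, lysosomes and exosomes, had 3.66, 3.73 and 2.55 CPM in sorafenib libraries, against 6.300, 7.75 and 4.85 CPM in control libraries. The groups did not overlap, although control replicate 3 lay nearer to the sorafenib libraries than to control replicate 2. Cd63 fell 1.899-fold (log2 fold change -0.93 ± 0.21 SE, edgeR adjusted p = 0.0125). The call did not hold on unfiltered FPKM (adjusted p = 0.0676) or when sorafenib replicate 3 was left out (adjusted p = 0.0639), with a range of 0.000461 to 0.0676 over 18 alternatives.

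Markers of other cell types were read in the same libraries. Of 11 macrophage and monocyte markers 9 were in the table, 1 was tested and 0 passed. The 1 tested, Adgre1, was higher with sorafenib at an unadjusted p under 0.05 (log2 fold change 1.08, edgeR adjusted p = 0.12). It had 18 to 27 counts per sorafenib library and 7 to 11 counts per control library. The summed level of the 9 was 1.08 to 1.56 CPM in sorafenib libraries and 0.643 to 1.15 CPM in control libraries. Csf1r and Cd14 had at most 3 counts in every library. Of the untested markers, Itgam had 9 to 18 counts per sorafenib library and 2 to 5 per control library. Lyz2 had 5 to 9 counts per sorafenib library and 3 to 10 per control library, and C1qb 0 with sorafenib and up to 5 in control. Of 7 dendritic cell markers 4 were in the table and 2 of the 3 tested rose, Flt3 and Zbtb46, with a summed level of 7.82 to 10.3 CPM in sorafenib libraries and 3.25 to 4.68 CPM in control libraries, while Xcr1 had at most 3 counts. All 6 B cell markers were in the table and 5 of 5 tested rose, with a summed level of 28.6 to 31.6 CPM in sorafenib libraries and 7.43 to 15.6 CPM in control libraries, while Ms4a1 had at most 3 counts. Of 7 neutrophil markers 4 were in the table and 2 of the 3 tested fell, Ly6g and Cxcr2, while Elane had at most 3 counts. Their summed level was 2.58 to 2.96 CPM in sorafenib libraries and 9.35 to 11.3 CPM in control libraries, almost all of it Ly6g and Cxcr2. Ly6g had 0 to 2 counts per sorafenib library and 120 to 125 per control library. Cxcr2 had 2.45 ± 0.269 CPM in sorafenib cells and 6.39 ± 1.03 CPM in control cells. Mpo did not pass (log2 fold change 0.26, edgeR adjusted p = 0.802). Of 7 stromal and epithelial markers 6 were in the table and 3 of the 4 tested fell, with a summed level of 29.1 to 30.5 CPM in sorafenib libraries and 55.5 to 58.9 CPM in control libraries, while Pdgfra and Cdh5 had at most 3 counts. Pecam1 made up most of this sum, with 27.1 ± 0.759 CPM in sorafenib cells and 50.8 ± 1.07 CPM in control cells. Of 7 mast cell and basophil markers 3 were in the table and the 1 tested, Kit, did not pass, with a summed level of 18.2 to 19.4 CPM in sorafenib libraries and 16.7 to 18.04 CPM in control libraries, almost all of it Kit, while Mcpt4 and Mcpt8 had at most 3 counts. Every gene in the table had counts in some library, so a marker without counts would not appear there. The part of these cell types, or of the lower T cell markers, in the changes of the 45 genes was not tested.

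The structural proteins of the lysosomal membrane showed small differences. Lamp1 had 195, 184 and 189.9 CPM in sorafenib libraries, against 168, 198 and 189 CPM in control libraries, and Lamp2 had 54.95, 56.96 and 61.7 CPM in sorafenib libraries, against 56.6, 58.2 and 56.8 CPM in control libraries. Both LAMPs overlapped between the groups, with log2 fold changes of 0.034 ± 0.076 and 0.016 ± 0.072 (SE, edgeR adjusted p = 0.81 and 0.913). Laptm5, a membrane protein of blood cells that helps to bring the T cell receptor zeta chain to lysosomes, was the highest of the 45 genes per length, at 435 ± 7.64 FPKM in sorafenib cells and 447 ± 42.6 FPKM in control cells (SD, n = 3 each). In TMM-scaled CPM it had 1051, 1005 and 1017 CPM in sorafenib libraries, against 1056, 1070.1 and 1199 CPM in control libraries, which did not overlap on that scale, while the FPKM means differed by less than the SD of control cells. Laptm5 did not pass (log2 fold change -0.11 ± 0.088 SE, edgeR adjusted p = 0.426). Mcoln1, the lysosomal calcium channel, had 24.5 ± 0.3096 CPM in sorafenib cells and 25.8 ± 1.41 CPM in control cells (edgeR adjusted p = 0.598).

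The 3 subunits of the V1 sector, the part of the proton pump that splits ATP, did not pass by edgeR, DESeq2 or limma-voom, and 0 of the 3 had an unadjusted p under 0.05. Atp6v1a, its catalytic subunit, had 112, 112 and 110.2 CPM in sorafenib libraries, against 103, 104 and 104 CPM in control libraries. These did not overlap, but the log2 fold change was 0.10 ± 0.061 (SE, edgeR adjusted p = 0.306). Atp6v1b2, which shares the catalytic head with it, had 119 ± 2.03 CPM in sorafenib cells and 117 ± 8.02 CPM in control cells, and Atp6v1h, a regulatory subunit, had 50.1 ± 0.688 CPM in sorafenib cells and 47.1 ± 5.71 CPM in control cells (SD, n = 3 each). They had log2 fold changes of 0.022 ± 0.071 and 0.088 ± 0.091 (edgeR adjusted p = 0.873 and 0.569). Atp6v1h passed as higher without control replicate 2 (adjusted p = 0.0287, with a range up to 0.885 over 18 alternatives).

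In the autophagy genes 0 rose and 2 fell of 19, or 10.5%. Of all tested genes 17.9% passed, 8.51% higher and 9.43% lower. An unadjusted p under 0.05 was found for 8 of the 19, beside 30.9% of all tested genes. DESeq2 called 4 lower and limma-voom 2, beside 10.7% and 9.35% of all tested genes lower. Their median log2 fold change was -0.16, beside -0.011 over all tested genes. Without control replicate 2 the count was 4 higher and 5 lower (31.8% of all tested genes in either direction). After the trend with gene length was taken out it was 0 higher and 5 lower. With total counts it was 1 higher and 2 lower, beside 11.3% and 6.23% of all tested genes. On filtered FPKM it was 2 higher and 2 lower, beside 12.7% and 6.76% of all tested genes. Without control replicate 1 it was 0 higher and 4 lower. Removing the length trend raised the share over all tested genes to 24.2%, and leaving out control replicate 1 gave 15.3%.

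Of the 5 initiation genes, Uvrag fell. Its product joins Beclin 1 and the lipid kinase VPS34 in a complex that acts in autophagosome maturation and endosome traffic. Uvrag had 51.6, 48.3 and 52.1 CPM in sorafenib libraries, against 68.4, 69.4 and 70.7 CPM in control libraries. The groups were separate, with the control libraries close to each other. Uvrag fell 1.37-fold (log2 fold change -0.46 ± 0.068 SE, edgeR adjusted p = 0.00126). Becn1, which encodes Beclin 1, had 84.7, 93.5 and 91.1 CPM in sorafenib libraries, against 97.6, 95.4 and 89.1 CPM in control libraries, and Ulk1, the kinase that starts autophagy, had 51.3, 45.8 and 50.02 CPM in sorafenib libraries, against 52.2, 45.4 and 54.5 CPM in control libraries. Both overlapped, with log2 fold changes of -0.067 ± 0.071 and -0.048 ± 0.088 (SE, edgeR adjusted p = 0.585 and 0.764). Of the WIPI proteins, which read the lipid made by VPS34, Wipi2 had 69.3 ± 0.394 CPM in sorafenib cells and 71.5 ± 1.97 CPM in control cells (edgeR adjusted p = 0.704). Wipi1 was lower in level, at 4.82, 3.68 and 3.98 CPM in sorafenib libraries, against 5.07, 5.05 and 6.08 CPM in control libraries. Its groups did not overlap, and it did not pass (log2 fold change -0.38 ± 0.16 SE, edgeR adjusted p = 0.143).

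None of the 5 conjugation genes, whose products attach ATG8 proteins to lipid, passed by edgeR, with 1 at an unadjusted p under 0.05, Atg16l1. ATG7 is the activating enzyme, ATG3 the conjugating enzyme, and ATG12, ATG5 and ATG16L1 form the complex that places ATG8 on the membrane. Atg16l1 had 61.3, 58.8 and 59.4 CPM in sorafenib libraries, against 66.1, 65.6 and 68.6 CPM in control libraries, without overlap (log2 fold change -0.16 ± 0.066 SE, edgeR adjusted p = 0.131), and passed as lower without control replicate 2 (adjusted p = 0.0376, with a range up to 0.57 over 18 alternatives). Atg5 had 29.05, 26.97 and 28.8 CPM in sorafenib libraries, against 22.2, 28.6 and 23.2 CPM in control libraries, and its groups overlapped only through control replicate 2. Its log2 fold change was 0.20 ± 0.11 (SE, edgeR adjusted p = 0.231), and it passed as higher on filtered FPKM and without control replicate 2 (adjusted p down to 0.00539, with a range up to 0.487 over 18 alternatives). Atg12 had 71.3 ± 0.616 CPM in sorafenib cells and 68.9 ± 7.71 CPM in control cells, Atg3 42.98 ± 1.59 CPM in sorafenib cells and 40.2 ± 4.89 CPM in control cells, and Atg7 16.9 ± 0.955 CPM in sorafenib cells and 16.7 ± 1.99 CPM in control cells (SD, n = 3 each). The log2 fold changes of Atg3, Atg7 and Atg12 were 0.10, 0.019 and 0.05 (edgeR adjusted p = 0.543, 0.932 and 0.747). Of these, Atg3 passed as higher without control replicate 2 (adjusted p = 0.0328, with a range up to 0.831 over 18 alternatives). DESeq2 and limma-voom called 0 of the 5.

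ATG8 proteins fall into the LC3 and GABARAP subfamilies, and of the 5 genes Gabarapl1 fell. It had 91, 82.7 and 84.6 CPM in sorafenib libraries, against 106, 140.4 and 115 CPM in control libraries. Every sorafenib library was lower than every control library, of which replicate 2 was the highest. Gabarapl1 fell 1.399-fold (log2 fold change -0.48 ± 0.10 SE, edgeR adjusted p = 0.00775). Map1lc3a, an LC3 gene, had 9.79, 8.76 and 8.401 CPM in sorafenib libraries, against 11.3, 16.9 and 10.4 CPM in control libraries, without overlap. It missed the threshold (log2 fold change -0.52 ± 0.17 SE, edgeR adjusted p = 0.0652) and passed as lower under 4 alternatives, among them DESeq2 (adjusted p of 0.0168 to 0.0466, with a range up to 0.214 over 18 alternatives). Map1lc3b, which encodes the LC3B form used as a marker of autophagosomes, had 104, 97.1 and 99.3 CPM in sorafenib libraries, against 87.6, 108 and 89.5 CPM in control libraries, and overlapped.

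Gabarap and Gabarapl2 overlapped as well, with log2 fold changes of -0.17 ± 0.094 and -0.23 ± 0.10 (SE, edgeR adjusted p = 0.255 and 0.15), beside 0.076 ± 0.087 for Map1lc3b (adjusted p = 0.61). Gabarap passed as lower without control replicate 1 (adjusted p = 0.0366, with a range up to 0.595 over 18 alternatives), and Map1lc3b as higher without control replicate 2 (adjusted p = 0.0222, with a range up to 0.91). Control replicate 2 was the highest control library in all 5 ATG8 genes. Per length the order of levels was Gabarap (178 ± 2.29 FPKM in sorafenib cells and 189.7 ± 17.9 FPKM in control cells), Gabarapl1 (49.9 ± 2.21 FPKM in sorafenib cells and 65.9 ± 6.43 FPKM in control cells), Map1lc3b (40.1 ± 1.11 FPKM in sorafenib cells and 35.98 ± 2.403 FPKM in control cells), Gabarapl2 (31.5 ± 2.57 FPKM in sorafenib cells and 35 ± 2.82 FPKM in control cells) and Map1lc3a (8.82 ± 0.663 FPKM in sorafenib cells and 11.9 ± 2.63 FPKM in control cells). Map1lc3b and Gabarapl2 were not apart beyond their spread in control cells. How reads matching more than 1 gene were counted is not stated in those sources, which leaves the values of these close relatives uncertain.

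Autophagy receptors bind ubiquitin and ATG8 proteins together, and 0 of the 4 passed by edgeR or limma-voom; 2 had an unadjusted p under 0.05, and DESeq2 called Tax1bp1. Sqstm1, which encodes p62, had 391, 355 and 369.8 CPM in sorafenib libraries, against 288, 373 and 319 CPM in control libraries. Control replicate 2 lay among the sorafenib libraries, and the other control libraries lay below all of them. Sqstm1 had a log2 fold change of 0.19 ± 0.10 (SE, edgeR adjusted p = 0.224) and passed as higher with total counts, on filtered FPKM and without control replicate 2 (adjusted p of 0.000821 to 0.0421, with a range up to 0.504 over 18 alternatives). Tax1bp1 had 174, 161 and 161 CPM in sorafenib libraries, against 179.9, 198 and 195 CPM in control libraries, and Nbr1 had 77.7, 79.5 and 74.5 CPM in sorafenib libraries, against 87.9, 91.3 and 85.1 CPM in control libraries. Neither gene overlapped between the groups, and both missed the threshold (log2 fold changes of -0.21 ± 0.069 and -0.19 ± 0.067 SE, edgeR adjusted p = 0.0626 and 0.0785). Tax1bp1 passed as lower under 4 alternatives (adjusted p of 0.0192 to 0.0403, with a range up to 0.251 over 18 alternatives), and Nbr1 under 2 (adjusted p down to 0.0417, with a range up to 0.338). Optn, which encodes optineurin, was low, at 6.74 ± 0.387 CPM in sorafenib cells and 7.84 ± 0.929 CPM in control cells (edgeR adjusted p = 0.297).

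**Figure D4:**
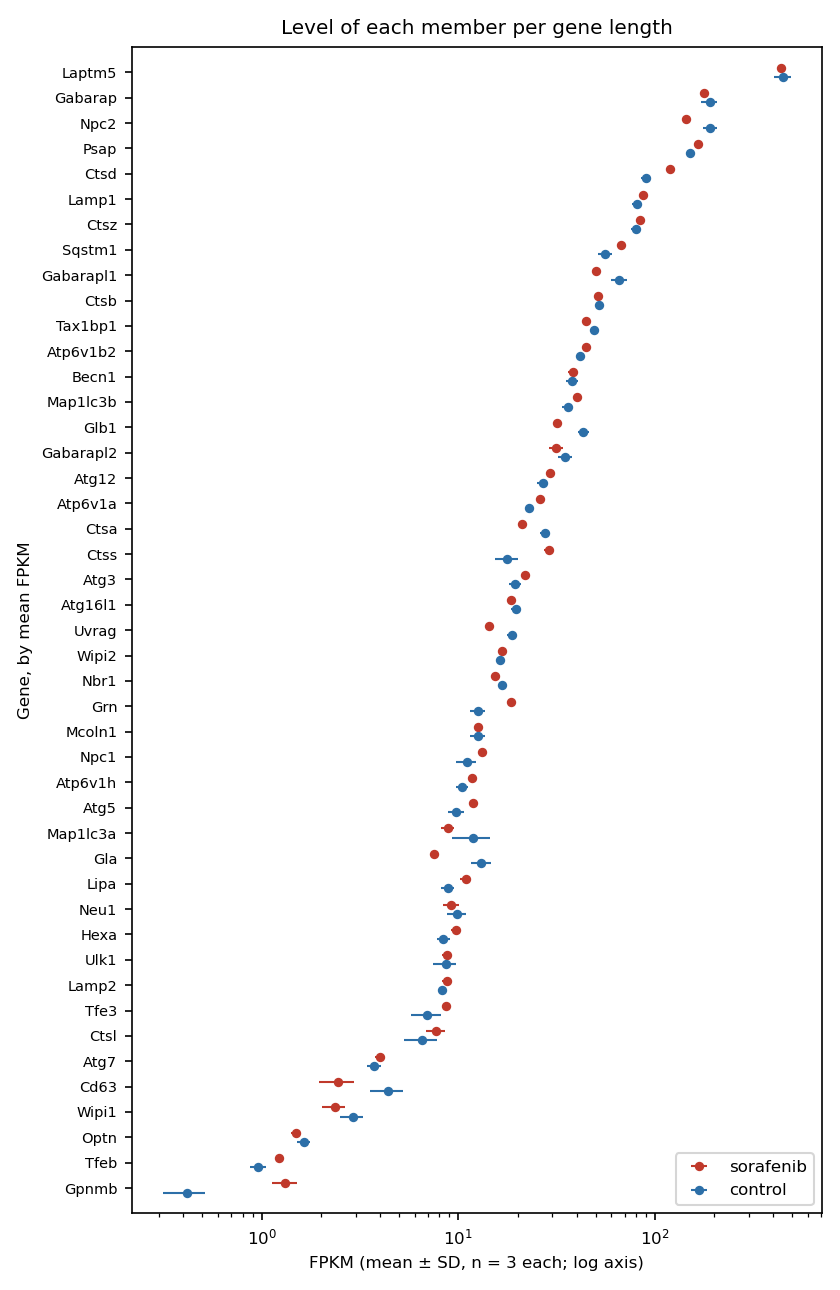
Level of each of the 45 genes per gene length, as FPKM on a log axis, with mean ± SD over 3 sorafenib libraries (red) and 3 control libraries (blue). Levels run from about 441 FPKM for Laptm5 to 0.866 FPKM for Gpnmb over all 6 libraries, and the groups of most genes lie close together beside that range.

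In level per length, most of the genes were well expressed in both groups. Over the 6 libraries the median member had 16.5 FPKM, beside 5.38 FPKM for the median tested gene, and 39 of the 45 lay above that gene. Laptm5, Gabarap, Npc2, Psap and Ctsd led, with 441, 184, 167, 158 and 105 FPKM. Atg7, Cd63, Wipi1, Optn, Tfeb and Gpnmb were the 6 below the median tested gene, so the largest rise and the largest fall among the 45, Gpnmb and Cd63, were both in genes of low level. Within groups, the median coefficient of variation of the 45 genes was 4.07% over sorafenib libraries and 9.32% over control libraries, beside 6.29% over sorafenib libraries and 11.5% over control libraries for all tested genes.

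A further 166 genes of these pathways were read from the same fit, of which 163 were in the table and 154 were tested; 11 rose and 19 fell, or 19.5%, beside 17.9% of all tested genes. Among 43 further lumenal hydrolases and related proteins, 3 rose and 7 fell (23.3%, beside 17.9% of all tested genes), with a median log2 fold change of -0.06. Scaling by total counts gave 6 higher and 5 lower, beside 11.3% and 6.23% of all tested genes. Plbd1, a phospholipase B-like protein known from neutrophils and monocytes, had 2.65, 2.06 and 1.61 CPM in sorafenib libraries, against 0.0804, 0.261 and 0.187 CPM in control libraries. It had 63 to 103 counts in each sorafenib library, against 3 to 9 in each control library, and its fitted fold was 11.9 (edgeR adjusted p = 0.000316). Arsb, arylsulfatase B, rose 2.97-fold, with 5.06 ± 1.08 CPM in sorafenib cells and 1.697 ± 0.356 CPM in control cells (edgeR adjusted p = 0.00103). Galc, which removes galactose from the lipids of myelin, fell 1.69-fold, with 19.2 ± 2.38 CPM in sorafenib cells and 32.4 ± 1.38 CPM in control cells (edgeR adjusted p = 0.000715). Acp5, an acid phosphatase known from osteoclasts, fell 1.41-fold, with 109 ± 3.36 CPM in sorafenib cells and 154 ± 8.397 CPM in control cells (edgeR adjusted p = 0.000805).

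Among 30 tested further membrane proteins of the lysosome, 4 rose and 0 fell (13.3%), with a median log2 fold change of -0.04. Of all tested genes 17.9% passed, 8.51% higher and 9.43% lower. An unadjusted p under 0.05 was found for 12, beside 30.9% of all tested genes. DESeq2 and limma-voom each called 5 higher and 0 lower, beside 20.4% and 18% of all tested genes in either direction. Without control replicate 2 the count was 7 higher and 2 lower, beside 31.8% of all tested genes in either direction. Scarb2, the receptor that carries glucocerebrosidase to lysosomes, had 80.96, 78.04 and 82.02 CPM in sorafenib libraries, against 61.6, 59.6 and 57.3 CPM in control libraries, and rose 1.35-fold (edgeR adjusted p = 0.00152). Slc29a3, a lysosomal nucleoside transporter, rose 1.31-fold (edgeR adjusted p = 0.00464), and Laptm4b, a relative of Laptm5, rose 1.801-fold (edgeR adjusted p = 0.0014). Mcoln3, a relative of Mcoln1, rose 4.25-fold at a low level, with 41 to 47 counts per sorafenib library and 8 to 13 counts per control library (edgeR adjusted p = 0.00415).

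Of 16 tested further V-ATPase subunits and accessory proteins, 1 rose and 2 fell (18.8%, beside 17.9% of all tested genes), with a median log2 fold change of -0.10. Scaling by total counts gave 3 higher and 2 lower, beside 11.3% and 6.23% of all tested genes. Atp6v0d2, a subunit of the membrane sector, fell 1.69-fold, with 7.78 ± 0.826 CPM in sorafenib cells and 13.2 ± 0.779 CPM in control cells (edgeR adjusted p = 0.00144). Atp6ap1, an accessory protein, fell 1.29-fold (edgeR adjusted p = 0.0033), and Atp6v1c1 rose 1.197-fold (edgeR adjusted p = 0.0388). The Atp6v1c1 call was lost with the replicate block and on leaving out any library but control replicate 2 (adjusted p up to 0.214 and down to 0.00321 over 18 alternatives).

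Of 41 tested further autophagy genes, 1 rose and 9 fell (24.4%), with a median log2 fold change of -0.09. The share of all tested genes was 17.9%, with 8.51% higher and 9.43% lower. Without any 1 of the sorafenib replicates or control replicate 3 the count was 4 to 6, while the share called over all tested genes was 9.15% to 11.7%. With total counts it was 6 (2 higher and 4 lower), beside 17.5% of all tested genes, and on filtered FPKM 5, beside 19.5% or 19.2% at the smaller pseudocount. Without control replicate 2 it was 17, of which 14 were lower, beside 31.8% of all tested genes. Bnip3l, a receptor for mitochondria that hypoxia induces, had 395, 385 and 404 CPM in sorafenib libraries, against 590.2, 681 and 625 CPM in control libraries, and fell 1.601-fold (edgeR adjusted p = 0.000308). Wdr45, a relative of the WIPI proteins, fell 1.47-fold (edgeR adjusted p = 0.000851), and Calcoco1, a receptor for the endoplasmic reticulum and Golgi, fell 1.35-fold (edgeR adjusted p = 0.00412). Trp53inp1, a p53 target whose product binds ATG8 proteins, rose 1.32-fold (edgeR adjusted p = 0.00432).

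The last list, called the regulators, was mixed. Beside genes that act on TFE factors it held Mitf, of their family, and factors of autophagy genes such as Foxo3 and Zkscan3. Of its 24 tested genes, 2 rose and 1 fell (12.5%, beside 17.9% of all tested genes), with a median log2 fold change of 0.13. Scaling by total counts gave 2 higher and 0 lower, beside 11.3% and 6.23% of all tested genes. Leaving out any 1 sorafenib library left 1 call, with 9.15% to 11.4% of all tested genes called. Flcn, folliculin, which lets mTORC1 hold TFE factors in the cytoplasm, had 82.1, 76.2 and 78.01 CPM in sorafenib libraries, against 65.4, 62.7 and 60.4 CPM in control libraries, and rose 1.25-fold (edgeR adjusted p = 0.00858). Its call was lost without sorafenib replicate 1 or 3 (adjusted p = 0.0573 and 0.0519, with a range of 0.000485 to 0.0573 over 18 alternatives). Zkscan3, a zinc finger protein known to repress autophagy genes, fell 1.302-fold (edgeR adjusted p = 0.00799), a call that did not hold with total counts, on FPKM or when sorafenib replicate 2 was left out (over 18 alternatives the adjusted p reached 0.149). Foxo3, a transcription factor of autophagy genes, rose 1.16-fold (edgeR adjusted p = 0.0404), a call lost in 7 of 18 alternatives (adjusted p up to 0.211).

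**Figure D5:**
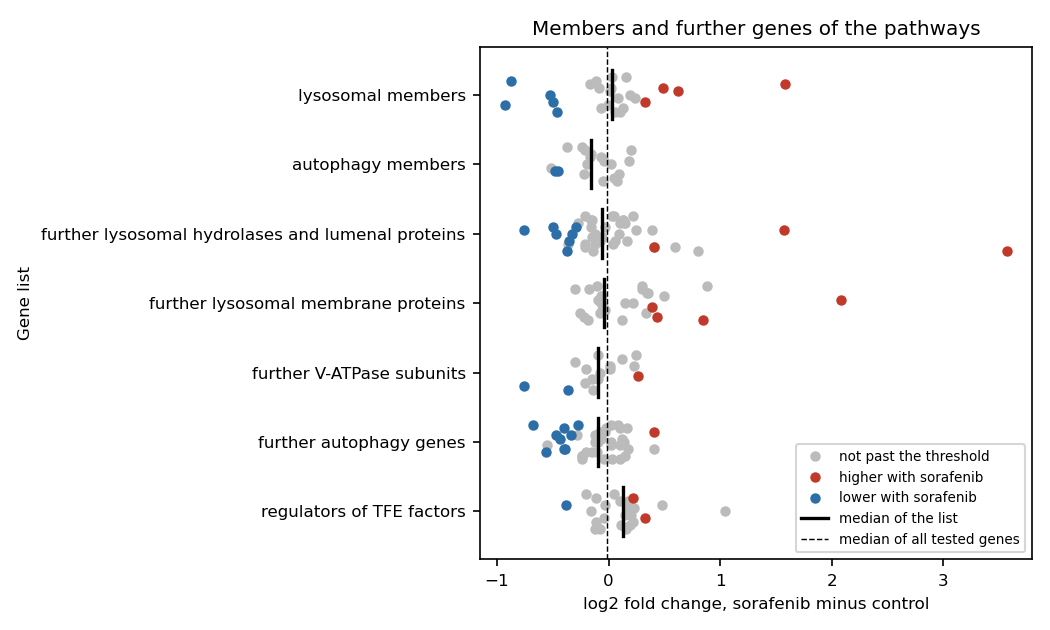
Log2 fold change, sorafenib minus control, of each tested gene (points) in the lysosomal and autophagy members and in the 5 lists of further genes, with red for higher, blue for lower and grey for not past the threshold; black bars are list medians and the dashed line is the median of all tested genes. The autophagy members have their median at -0.16, and the largest rises are in the lysosomal lists.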

How the data were processed

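RNA-seq of mouse Th9 cells was read from 6 libraries, 3 sorafenib and 3 control, grouped by their titles. The authors deposited whole-number gene counts without normalization, 1 column per library, and a table of FPKM. The build is GRCm39 per the submitters' processing notes, which name HISAT2, fastp, DESeq2, HTSeq and R 3.2.0 without their roles. The sources used here state neither annotation, strand setting nor the counting of multi-mapped reads, which leaves overlapping genes and paralogs uncertain. Deposited FPKM matched counts divided by column totals and by 1 length per gene, for 11425 of 11425 genes with over 20 counts in every library, within 1e-06.

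Counts were filtered with filterByExpr (minimum count 10), given TMM factors, and fitted in edgeR 4.0.16 under R 4.3.3 (quasi-likelihood F test, robust, no term but group, 4 residual degrees of freedom, common biological coefficient of variation 10.9%). P-values are 2-sided and Benjamini-Hochberg adjusted over 13255 genes, with a threshold of 0.05. The standard error is the size of the log2 fold change divided by the square root of F. Total counts lay between 36981476 and 38126521 per library, and a count of 0 allows up to 3 counts, for counting error only. The fit was also run on counts simulated from its own means and dispersions, with far fewer genes changed than passed here. That run is not reported here and does not measure the error rate in these data. The labels do not say whether replicate numbers pair the libraries. The correlation of deviations between same-numbered libraries was -0.063, 0.15 and 0.10. Libraries with different numbers were not compared, so these values cannot decide it.

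The 45 genes, the lists of further pathway genes and the marker lists were chosen with earlier results of these data known. Every member is accounted for; of each further list up to 4 called genes with the smallest adjusted p are named, or up to 2 where none is called. The symbols Pqlc2, Atp6v1g3 and Tfec were not matched. No test was run over a list: lists are described by counts and medians beside all tested genes. Promoter sequences are RefSeq's for GRCm38.p6 and exon overlaps are GENCODE's for GRCm38, used for sequence and neighbours only, since the counts were made on another build.

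Alternatives were scaling by upper-quartile factors, by total counts or by the size factors of DESeq2, no filter, CPM of at least 1 in 3 libraries, the replicate number as a block, DESeq2 1.42.0, limma-voom (limma 3.58.1), limma-trend on log2(FPKM + 1) with a mean FPKM of at least 0.5 or no filter and on log2(FPKM + 0.1), removal of each library's trend with gene length, and each library left out in turn.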

Additional observations from a re-analysis of the deposited data

How the results depend on the processing

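Of the 11 genes that passed, 9 kept the call and the direction under all 18 alternatives, and Ctsd and Cd63 lost it where named above. Of the 34 that did not pass, 14 passed under at least 1 alternative and 10 changed sign under at least 1. Of the genes that passed, Gpnmb had the fewest counts, with 47 in the lowest library, so its fold is the least precise by depth. No scaling moved the median of all tested genes by more than 0.078 (log2). Removing the low-count filter or a single library also changes how many genes are tested.

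The count of autophagy members that passed, 2, was 4 with DESeq2, 4 on filtered FPKM at either pseudocount and 5 with the gene length trend removed. Of the further lists, the hydrolases and lumenal proteins (10) gave 5 on unfiltered FPKM, and the membrane proteins (4) gave 7 with the length trend removed. The V-ATPase list (3) gave 5 with total counts, 5 on filtered FPKM at either pseudocount and 6 with the length trend removed. The autophagy list (10) gave 6 with total counts, 5 on filtered FPKM at either pseudocount and 4 on unfiltered FPKM. The regulators (3) gave 1 on unfiltered FPKM and 5 with the length trend removed. Over all genes (2378, or 17.9% of those tested), unfiltered FPKM gave 1423, or 6.7%. The share of all tested genes was 24.2% with the length trend removed, 20.4% with DESeq2 and 17.5% with total counts. On filtered FPKM it was 19.5%, or 19.2% at the smaller pseudocount.

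Leaving out 1 library gave 1243 to 4325 calls over all genes, or 9.15% to 31.8% of those tested. It gave 9 to 20 calls among the 45 members, 7 to 11 among lysosomal members and 2 to 9 among autophagy members. The further lists gave 7 to 19 hydrolases, 4 to 9 membrane proteins, 2 to 6 V-ATPase genes, 4 to 17 autophagy genes and 1 to 8 regulators. In each of these the highest count came without control replicate 2. Over all genes the count was 1294, 1549 and 1243 without sorafenib replicates 1, 2 and 3, and 1586 without control replicate 3. The V-ATPase list gave 2 without any 1 sorafenib library or control replicate 3, and the regulators gave 2 without control replicate 3.

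Log2 fold changes that changed sign all belonged to members that did not pass. Ctsz gave 0.029 with upper-quartile factors, 0.073 with total counts, 0.073 or 0.074 on FPKM, 0.0013 without the filter and 0.0095 with the length trend removed. With total counts, Mcoln1 gave 0.0018, Ulk1 0.023, Becn1 0.0096 and Wipi2 0.033. On FPKM, Mcoln1 gave 0.0049 or 0.0055, Ulk1 0.027 or 0.031, Becn1 0.0098 or 0.00999 and Wipi2 0.032 or 0.033, the second of each at the smaller pseudocount. Over the libraries left out in turn, Ctsz ran from -0.067 to 0.082, Lamp1 from -0.033 to 0.088, Lamp2 from -0.033 to 0.052, Atp6v1b2 from -0.014 to 0.081, Ulk1 from -0.12 to 0.015, Atg7 from -0.070 to 0.11 and Atg12 from -0.018 to 0.14. The cause of these changes was not tested.

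Whether the replicate numbers pair the libraries is not known. With the number as a block, 11 members passed, 4 higher and 7 lower, and 2139 genes in all (16.1% of those tested, 1031 higher, 1108 lower). The lists gave 9 lysosomal members, 2 autophagy members, 10 hydrolases, 5 membrane proteins, 2 V-ATPase genes, 10 autophagy genes and 2 regulators. Among the genes named, the block changed only the calls of Atp6v1c1 (adjusted p = 0.0676) and Foxo3 (adjusted p = 0.0963).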
